A study of Mus musculus with 16 samples.

Results

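The Hox genes encode homeodomain transcription factors that lie in 4 clusters, HoxA to HoxD. The members described here were the protein-coding genes of the deposited count table with a symbol made of Hox, a cluster letter and a paralog number. They were 39 of 55487 genes: 11 in HoxA on chromosome 6, 10 in HoxB on chromosome 11, 9 in HoxC on chromosome 15 and 9 in HoxD on chromosome 2. The symbols alone chose them, so their levels had no part in the choice.

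Within a cluster the genes stand in the order of their paralog numbers, and in the embryo low-numbered genes are used towards the head and high-numbered genes towards the tail. That pattern is set by retinoic acid and other signals, is held by Polycomb and Trithorax group proteins, and persists in adult epithelium and stroma as a record of body position. Hox proteins bind DNA together with PBX and MEIS cofactors. In the mammary gland, members of HoxA, HoxB, HoxC and HoxD are known from work on patterning of the mammary line and on growth of the gland in pregnancy.

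The study compared mouse mammary organoids, which are epithelial cultures grown in 3 dimensions, by RNA sequencing in 16 libraries. WT organoids (n = 3) came from normal breast, and the mutant organoids are labelled as breast tumor: PIK3CA mutant (n = 4), HER2 mutant (n = 4) and double mutant with both genes mutated (n = 5). The series title names the alleles as HER2 V777L and PIK3CA H1047R. HER2 (gene Erbb2) is a receptor tyrosine kinase of the EGF receptor family, and PIK3CA is the catalytic subunit of phosphoinositide 3-kinase alpha. All cultures shared 1 medium with EGF, N-acetyl-cysteine and conditioned medium carrying Rspo1 and Noggin. How the mutations were introduced, in which cells and under which promoter, is not given in the sources used here. Genotype and tissue source cannot be told apart in comparisons with WT. Nothing states that the replicates came from separate animals, so p-values measure the spread between these libraries, which may be technical.

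Libraries held 45545182 to 64168308 counts on genes. Erbb2 lay at 145 to 171 CPM (counts scaled to library size) in WT and 149 to 188 in PIK3CA mutants, against 2696 to 4632 in HER2 mutants and 1499 to 2751 in double mutants. These totals do not show which allele was read. Epithelial markers (Epcam, Cdh1, Krt8 and Krt18) summed to 1459 to 4374 CPM over the 16 libraries. As sums, macrophage markers were highest in WT and fibroblast markers overlapped. The sum of 9 fibroblast markers was 502 to 2960 CPM in WT and 66.0 to 1095 CPM in mutant libraries. That of 7 macrophage markers was 1027 to 3505 CPM in WT and at most 772 in mutants. Of the 7, Cd14 was higher in PIK3CA mutants than in WT by mean (650 against 540 CPM), without being called. By mean, Cd14 was the largest of the 7 in PIK3CA, HER2 and double mutants (650, 278 and 328 CPM), and Lyz2 in WT (1388 CPM). No marker of these lists was at 0 in all 16 libraries. In bulk RNA, fewer cells of a type and less RNA per cell cannot be told apart.

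The promoters of 3 members that the results turn on are shown: Hoxb4 had the highest level per length, Hoxb8 lies in the stretch that was high in a single double mutant library, and Hoxd8 was the member called in every comparison with WT. Each is the 250 bases before the annotated start, 5′ to 3′ on the gene's strand, from RefSeq (GRCm38.p6), which held an entry for 22 of the 39 members. None of the 3 windows overlapped an annotated exon. Capitals mark the matches, on either strand, to 4 motifs that were searched: TAATTA, a homeodomain core that reads the same on both strands; TGATNNAT, a form bound by PBX with Hox; AGGTCA, the nuclear receptor core half-site; and TATAAA, the TATA box.
Hoxb4 (chr11:96318017-96318266, plus strand): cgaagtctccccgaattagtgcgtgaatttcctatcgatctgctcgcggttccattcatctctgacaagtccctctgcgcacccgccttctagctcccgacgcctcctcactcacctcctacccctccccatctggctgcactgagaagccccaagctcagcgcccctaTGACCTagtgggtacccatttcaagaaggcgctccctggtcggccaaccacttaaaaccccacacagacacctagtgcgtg
Hoxb8 (chr11:96281655-96281904, plus strand): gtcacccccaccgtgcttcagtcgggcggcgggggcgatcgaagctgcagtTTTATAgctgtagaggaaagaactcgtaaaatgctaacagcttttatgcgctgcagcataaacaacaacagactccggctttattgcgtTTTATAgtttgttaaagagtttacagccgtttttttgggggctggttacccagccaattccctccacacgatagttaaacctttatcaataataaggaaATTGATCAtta
Hoxd8 (chr2:74704365-74704614, plus strand): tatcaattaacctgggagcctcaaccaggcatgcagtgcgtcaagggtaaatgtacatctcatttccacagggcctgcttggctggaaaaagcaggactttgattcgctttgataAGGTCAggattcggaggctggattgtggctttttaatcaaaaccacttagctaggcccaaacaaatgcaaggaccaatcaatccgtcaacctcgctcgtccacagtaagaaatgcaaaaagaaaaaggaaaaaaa
The Hoxb4 and Hoxd8 windows each held 1 match to AGGTCA, which 14% of 32851 promoters of this length held. The Hoxb8 window held 2 matches to TATAAA (12.4% of promoters had at least a single match) and 1 to TGATNNAT (7.68%). TAATTA was matched in none of the 3 and in 4.84% of all promoters. No 2 matches overlapped. A match describes the letters and shows neither binding nor regulation.

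The clusters also hold microRNA genes, which these libraries count only as loci and not as mature products. Of their 5′ arms, those of the miR-10 and the miR-196 families are shown, since members of a family in different clusters have the same seed (bases 2 to 8, in capitals). They are from RefSeq (GRCm38.p6).
mmu-miR-10a-5p (chr11:96317186-96317208, plus strand, HoxB): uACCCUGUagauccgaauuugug
mmu-miR-10b-5p (chr2:74726074-74726096, plus strand, HoxD): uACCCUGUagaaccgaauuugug
mmu-miR-196a-5p (chr11:96265187-96265208 and chr15:102973365-102973386, plus strand, HoxB and HoxC): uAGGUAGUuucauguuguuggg
mmu-miR-196b-5p (chr6:52230129-52230150, minus strand, HoxA): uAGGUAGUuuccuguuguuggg
The Mir10a locus, just before Hoxb4, had 0 to 10 counts in 15 libraries and 16 in double mutant replicate 3.

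HoxB was the cluster with most of the Hox RNA. Of the 39 members, 22 had enough counts to be tested: 7 of 11 in HoxA, 8 of 10 in HoxB, 6 of 9 in HoxC and 1 of 9 (Hoxd8) in HoxD. By paralog number, 4 of 8 anterior members (numbers 1 to 3), 13 of 15 central members (4 to 8) and 5 of 16 posterior members (9 to 13) were tested. The other 17 had at most 20 counts in any library and 3 to 64 counts over all 16, except Hoxd3, which had 0 counts in every library. A count of 0 allows up to 3 counts, which is 0.0477 to 0.0668 CPM at these depths. Intervals and limits of this kind cover counting error only.

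**Figure D1:**
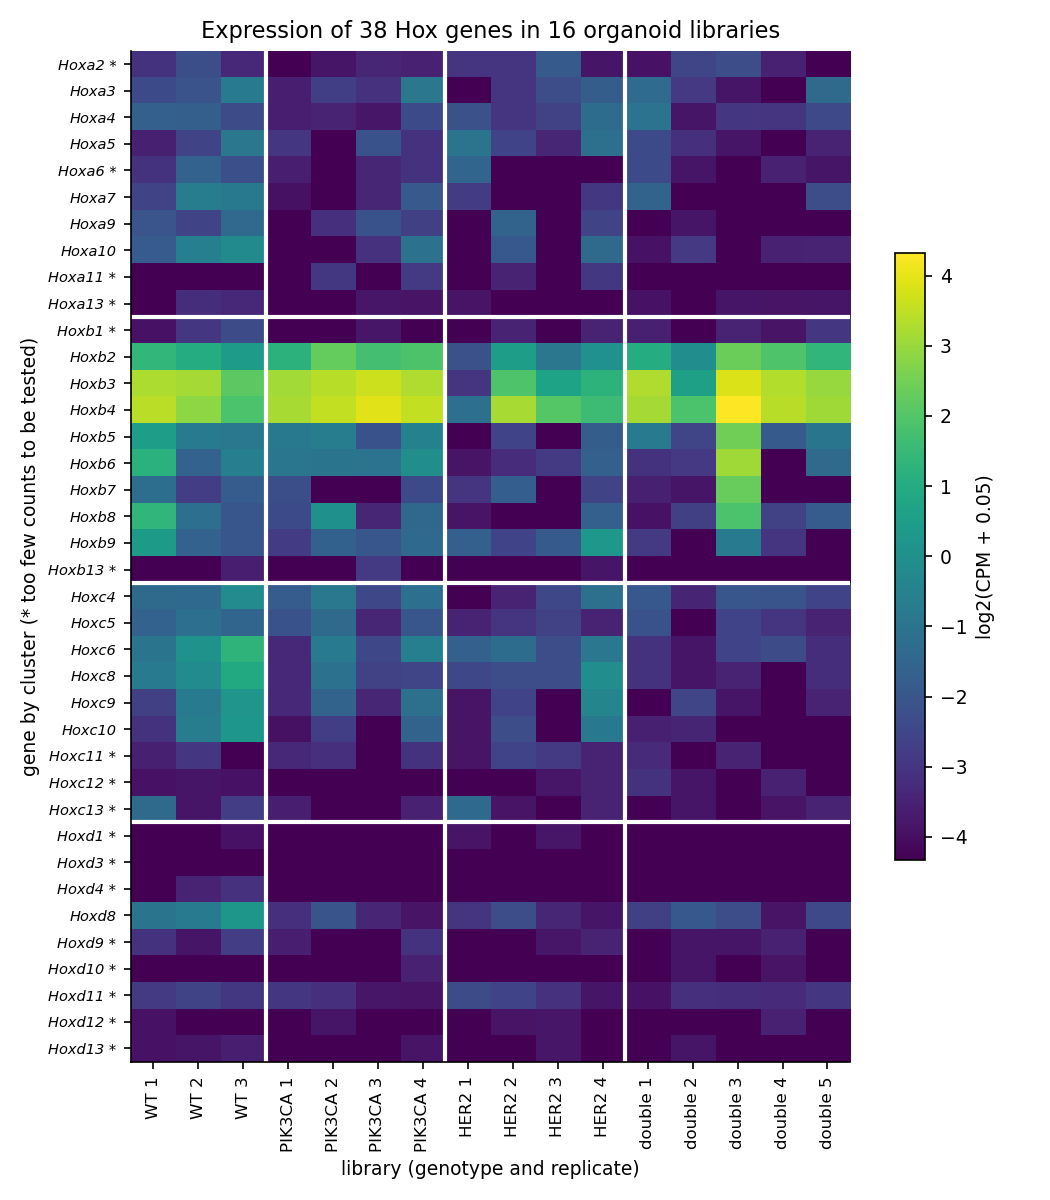
Level of 38 of the 39 Hox genes (rows, by cluster and paralog number) in each of the 16 libraries (columns, by genotype) as log2(CPM + 0.05); white lines separate clusters and genotypes, and a star marks the 17 genes not tested. Hoxb3 and Hoxb4 are the brightest rows except in HER2 replicate 1, and double mutant replicate 3 is bright from Hoxb2 to Hoxb8.

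Per length, Hoxb4 led with a mean of 3.32 RPKM (CPM per kilobase of exon) over the 16 libraries. It was followed by Hoxb3 at 1.70 RPKM and Hoxb2 at 0.668 RPKM. Among all 24252 genes tested, Hoxb4 stood at percentile 61.1 of level per length, Hoxb3 at 48.5 and Hoxb2 at 31.8, so even the leading members were middling or low. The next 5 were also HoxB or HoxC members: Hoxb6 (0.468), Hoxb7 (0.263), Hoxb5 (0.257), Hoxb8 (0.213) and Hoxc6 (0.179 RPKM). All 8 tested HoxB members averaged over 0.1 RPKM, as did 3 of 9 in HoxC and 0 in HoxA and HoxD. For Hoxb5 to Hoxb8, double mutant replicate 3 was the highest of the 16 libraries and raised these means. Hoxb7 had 3.22 RPKM in that library, and the median of the double mutants was 0.0136 RPKM. Its means were 0.155 RPKM in WT, 0.0489 in PIK3CA mutants and 0.0727 in HER2 mutants.

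Summed over the 39 members, WT libraries held 28.5 ± 5.59 CPM (SD, n = 3) and PIK3CA mutants 29.6 ± 4.90 CPM (n = 4). The sum was 10.9 ± 6.33 CPM in HER2 mutants (n = 4) and 28.4 ± 21.0 CPM in double mutants (n = 5). Among the double mutants, replicate 3 had 63.6 CPM and replicate 2 had 7.49 CPM. HER2 mutant replicate 1 had the lowest sum of all, 3.38 CPM. HoxB took 92.5 ± 4.27% of the sum in PIK3CA mutants and 92.6 ± 5.32% in double mutants. Its share was 69.7 ± 20.8% in WT and 62.8 ± 24.1% in HER2 mutants, where libraries differed widely. The remainder in WT was mainly HoxC.

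HoxC summed to 4.58 ± 2.82 CPM in WT, 1.38 ± 0.952 in PIK3CA mutants, 1.43 ± 1.18 in HER2 mutants and 0.465 ± 0.157 in double mutants. HoxD summed to 0.946 ± 0.440 CPM in WT, against 0.168 ± 0.0827, 0.204 ± 0.0892 and 0.215 ± 0.0800 in the 3 mutants in the same order. HoxA summed to 2.36 ± 1.14 CPM in WT, 0.730 ± 0.698 in PIK3CA mutants, 1.56 ± 0.631 in HER2 mutants and 0.715 ± 0.514 in double mutants. The HoxC and HoxD sums of every double mutant library lay below every WT library, whereas the HoxA sums of the 2 genotypes overlapped. The sums were not tested.

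Levels of single genes were tested with edgeR's quasi-likelihood test across all 24252 genes, and a gene was called when its Benjamini-Hochberg adjusted p was under 0.05. Of the 22 tested members, 7 were called in at least 1 of 7 comparisons. In all comparisons with WT the called members were lower in the mutant. Of the 22, 12 would not have passed the filter on low counts without the WT libraries, among them Hoxd8, Hoxc8, Hoxc10 and Hoxa9, so a member could enter through WT alone and the balance of directions over the 22 supports nothing.

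Hoxd8 (ENSMUSG00000027102, chromosome 2, 74704615 to 74707933 in GRCm38), the only tested HoxD member, fell in all 3 mutants. WT libraries had 26, 27 and 69 counts (0.454, 0.540 and 1.15 CPM). PIK3CA mutants had 4, 9, 2 and 1 counts, HER2 mutants 4, 8, 2 and 1, and double mutants 6, 10, 8, 1 and 7. Every mutant library lay below every WT library, with a highest mutant value of 0.210 CPM. By edgeR, Hoxd8 was lower by a log2 fold change of −3.18 (SE 0.751, adjusted p = 0.0220) in PIK3CA mutants. It was −3.23 (SE 0.755, adjusted p = 0.0146) in HER2 mutants and −2.50 (SE 0.670, adjusted p = 0.0237) in double mutants. WT replicate 3 carried much of this: without it the adjusted p values by edgeR were 0.169, 0.1004 and 0.180, at log2 fold changes of −2.65, −2.70 and −1.98. In PIK3CA mutants the call was also lost without replicate 1, 3 or 4 of that genotype (adjusted p = 0.0756, 0.0698 and 0.0662). As an interaction (double mutant change minus the 2 single changes), the value was 3.91 for Hoxd8 (SE 1.04, edgeR adjusted p = 0.0859) and was not called. At 1 to 10 counts per mutant library, the 2 single falls added together would lie below what counts can show.

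In PIK3CA mutants against WT, Hoxd8 was the only member called of 22 tested, beside 4.52% of all genes tested (1.49% higher and 3.03% lower). At an unadjusted p under 0.05, 5 members were lower and 0 higher, beside 16.8% of all genes in either direction (2325 of 24252 lower). They included Hoxd8, Hoxc8, Hoxc6 and Hoxa4, of which only Hoxc6 passes the filter on low counts without the WT libraries. Hoxc8 had a log2 fold change of −2.58 (SE 0.815, edgeR adjusted p = 0.0927). DESeq2 called it (adjusted p = 0.0404), as did edgeR fitted on these 2 genotypes alone (adjusted p = 0.0341). The abundant HoxB members lay slightly higher than in WT without passing the test, with log2 fold changes of 0.84 for Hoxb2 (SE 0.586), 0.44 for Hoxb3 (SE 0.743) and 0.71 for Hoxb4 (SE 0.684).

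In HER2 mutants against WT, Hoxd8 was again the only member called, beside 10.4% of all genes (4.75% higher and 5.63% lower). At an unadjusted p under 0.05, 9 members were lower and 0 higher, beside 25.7% of all genes in either direction (3075 of 24252 lower). They were Hoxd8, Hoxa7, 4 of HoxB (Hoxb2, Hoxb3, Hoxb5 and Hoxb8) and 3 of HoxC (Hoxc4, Hoxc5 and Hoxc6). Of these, Hoxd8, Hoxa7 and Hoxc5 pass the filter on low counts only with the WT libraries. Hoxb3 was at a log2 fold change of −1.97 (SE 0.748, edgeR adjusted p = 0.106). All 4 HER2 libraries were below all 3 WT libraries for Hoxb3, at 0.0754 to 3.78 CPM against 4.42 to 9.53 CPM. DESeq2 called 4 members lower here (Hoxd8, Hoxb3, Hoxb5 and Hoxc5). Limma on the deposited normalized values called Hoxd8 and Hoxb5, and edgeR on these 2 genotypes alone called 0 (adjusted p = 0.0506 for Hoxd8). Without HER2 replicate 4, edgeR called Hoxd8, Hoxc4 (log2 fold change −3.17, adjusted p = 0.0322) and Hoxc8. Without double mutant replicate 2 it also called Hoxc5. Without double mutant replicate 3, which like replicate 2 enters through the shared spread, edgeR called Hoxb5 beside Hoxd8 (−3.11, adjusted p = 0.0368) and Hoxb6 (−3.25, adjusted p = 0.0384).

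**Figure D2:**
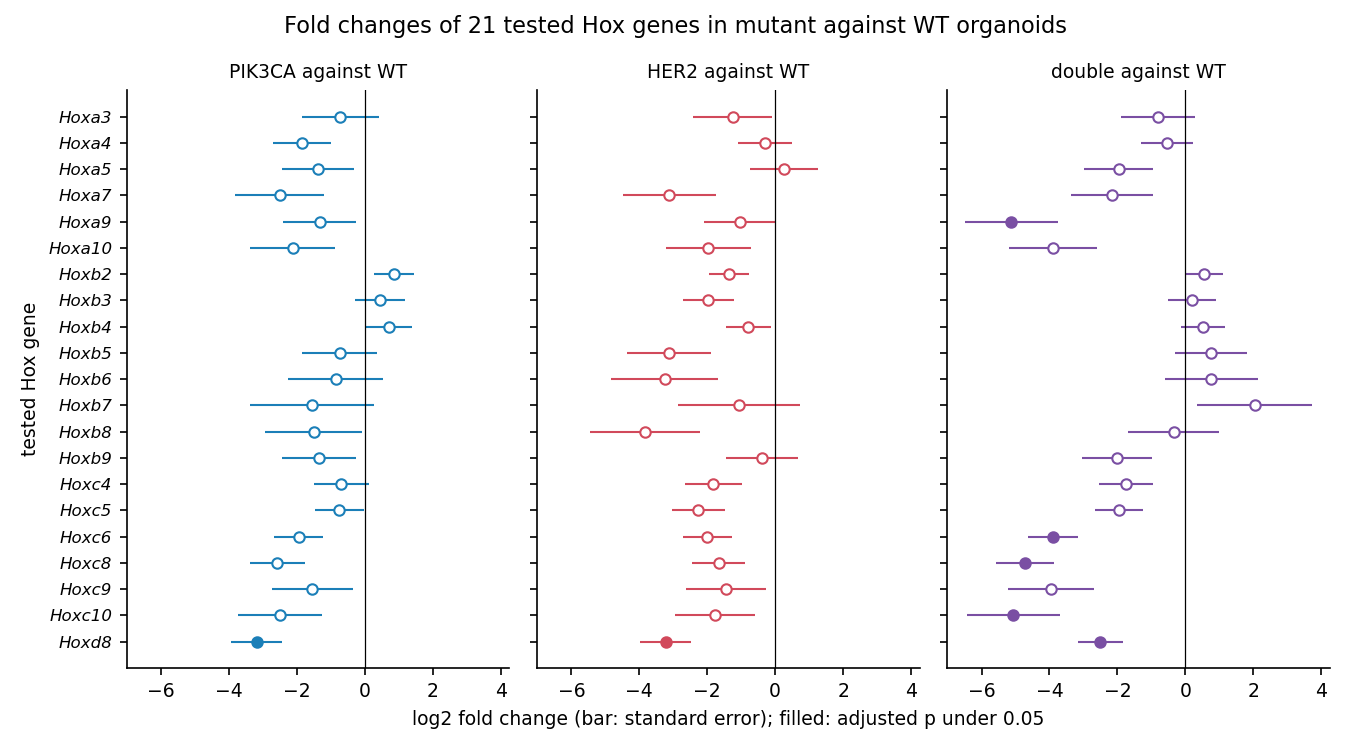
Log2 fold change of 21 of the 22 tested Hox genes in each mutant against WT (points) with the standard error (bars); filled points passed an adjusted p under 0.05. Hoxd8 is filled in all 3 panels, and Hoxa9, Hoxc6, Hoxc8 and Hoxc10 only for the double mutant.

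In double mutants against WT, 5 members were called and all were lower: Hoxc8, Hoxc6, Hoxc10, Hoxa9 and Hoxd8. The background was 11.8% of all genes, with 5.03% higher and 6.72% lower. Without adjustment, 9 members were lower and 0 higher at p under 0.05, beside 27.1% of all genes in either direction (3405 of 24252 lower). The 4 not called were Hoxa10, Hoxc4, Hoxc5 and Hoxc9. Of the 9, only Hoxc4 and Hoxc6 pass the filter on low counts without the WT libraries, so this balance supports nothing.

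Hoxc8, which is known for a role in placing the mammary line, had 30, 42 and 110 counts in WT. The double mutants had 4, 1, 2, 0 and 3 counts. PIK3CA mutants had 3, 21, 5 and 7 counts, and HER2 mutants 7, 8, 7 and 44. The WT and double mutant libraries did not overlap, and HER2 replicate 4 stood with WT. Hoxc8 was at 1.07 ± 0.684 CPM in WT (SD, n = 3) and 0.0379 ± 0.0284 in double mutants (n = 5), a log2 fold change of −4.72 (SE 0.862, edgeR adjusted p = 0.00227).

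Hoxc6, known from mammary development along the trunk, had 26, 51 and 143 counts in WT. The double mutants had 4, 1, 6, 8 and 3. PIK3CA mutants had 3, 26, 6 and 34, and HER2 mutants 14, 19, 7 and 24. Again WT and double mutants did not overlap, while PIK3CA and HER2 libraries reached into the WT range. The log2 fold change in double mutants was −3.91 (SE 0.736, edgeR adjusted p = 0.00282). Hoxc8 and Hoxc6 were called in this comparison in each of 8 fits that left out 1 library of WT or the double mutant.

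The other calls rested on fewer counts. Hoxc10, a posterior member, had 4, 29 and 67 counts in WT and 2, 2, 0, 0 and 0 in double mutants. Its log2 fold change was −5.06 (SE 1.37, edgeR adjusted p = 0.0251). The WT libraries spread from 0.0699 to 1.12 CPM, so WT replicate 1 was close to the mutants. PIK3CA mutants had 1, 5, 0 and 16 Hoxc10 counts, and HER2 mutants 1, 8, 0 and 25. The Hoxc10 call was lost without WT replicate 3 (adjusted p = 0.142) and without double mutant replicate 3, 4 or 5 (adjusted p = 0.0523, 0.0545 and 0.0517), all by edgeR. Hoxc10 shares 166 exon bases with the long gene model of Hoxc5 on the same strand, so reads there cannot be assigned to either.

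Hoxa9, known from blood cell growth and, with its paralogs, from mammary growth in pregnancy, had 11, 6 and 20 counts in WT. The double mutants had 1 count in all, in replicate 2. PIK3CA mutants had 0, 3, 8 and 6, and HER2 mutants 0, 15, 0 and 6. Scaled to library size, WT was 57.7 times as high as the double mutant, with a 95% exact interval of 9.73 to 2339 for counting error only. The edgeR log2 fold change was −5.13 (SE 1.37, adjusted p = 0.0237). The call was lost without WT replicate 1 (adjusted p = 0.0569), WT replicate 3 (0.107) or double mutant replicate 4 (0.0514), again by edgeR. It was also not called without HER2 replicate 2, a library outside the comparison. Fitted on WT and double mutant alone, Hoxa9 and Hoxc10 failed the filter on low counts, and edgeR called Hoxc8, Hoxc6, Hoxd8 and Hoxa10.

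**Figure D3:**
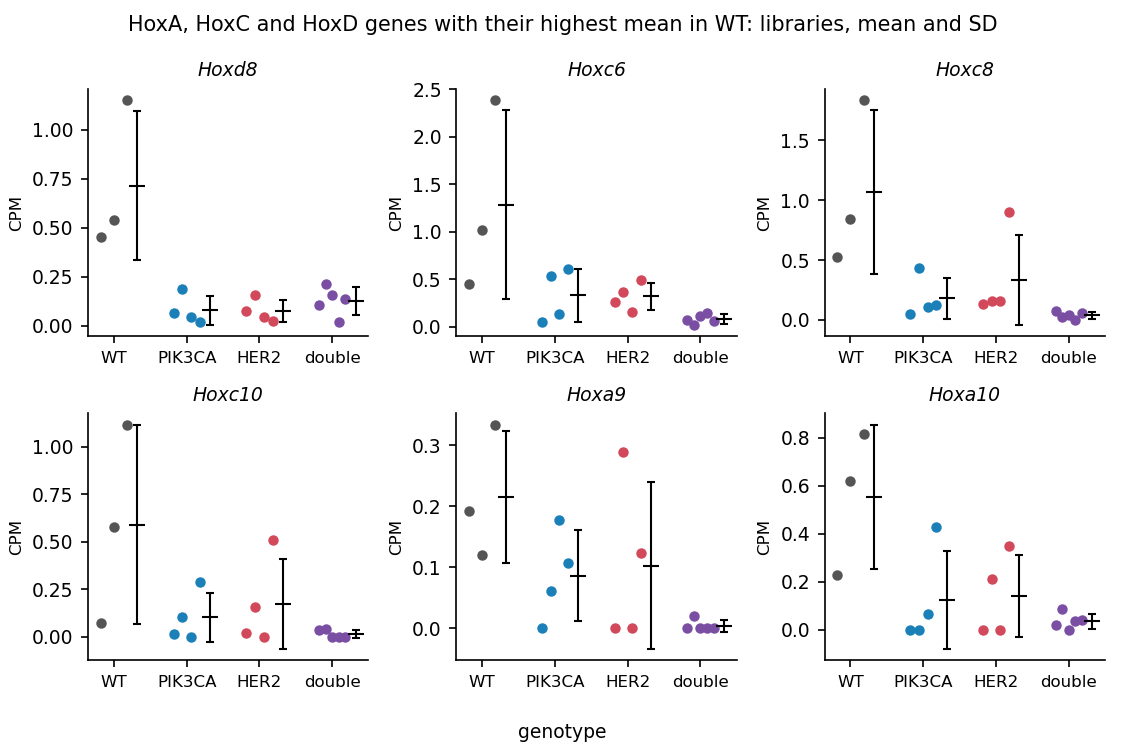
CPM of 6 Hox genes from HoxA, HoxC and HoxD in each library (points) by genotype, with mean and SD (black; 3, 4, 4 and 5 libraries). The genes were picked by their results: the 5 members called in double mutants against WT, and Hoxa10, which was not called. The 5 double mutant libraries lie under all WT libraries for each gene shown, and WT replicate 3 is the highest point in every panel. Members not shown, such as Hoxc9, overlapped, and the share of all genes without overlap is not given here.

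Stromal markers were lower in the same comparison. In double mutants against WT, edgeR called 7 of 9 fibroblast markers and 6 of 7 macrophage markers lower. It called 1 and 6 lower in PIK3CA mutants and 2 and 4 in HER2 mutants. Over all genes, 6.72% were called lower in double mutants, 3.03% in PIK3CA mutants and 5.63% in HER2 mutants. The fibroblast sum was 175 to 403 CPM in double mutants against 502 to 2960 CPM in WT. Within WT, replicate 1 had the lowest fibroblast sum (502 CPM) and the lowest HoxC sum (2.19 CPM). Replicate 2 had 2960 and 3.86 CPM, and replicate 3 had 2454 and 7.69 CPM. Among HER2 mutants, replicate 4 had the highest fibroblast sum (1095 CPM) and the highest HoxC sum (3.19 CPM), while replicate 2 had 1090 and 1.04 CPM. In PIK3CA mutants, replicate 4 had the highest fibroblast sum (1049 CPM) with 2.13 CPM of HoxC, but replicate 2 had the lowest fibroblast sum (226 CPM) with the highest HoxC sum (2.27 CPM). Their part in the lower HoxC, HoxD and Hoxa9 levels was not tested.

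HER2 and PIK3CA mutants were also compared with each other, and 2 members were called, 1 higher and 1 lower, beside 4.41% of all genes (2.21% higher and 2.2% lower). Hoxb2, which acts in hindbrain patterning, was lower in HER2 mutants. Its level was 2.27, 4.79, 3.30 and 3.68 CPM in PIK3CA mutants and 0.170, 1.39, 0.490 and 0.983 CPM in HER2 mutants. The groups did not overlap. WT libraries had 2.60, 1.98 and 1.28 CPM, overlapping both, and the double mutants spanned 0.902 to 5.14 CPM. The log2 fold change of HER2 against PIK3CA mutants was −2.21 (SE 0.563, edgeR adjusted p = 0.0382). In the same comparison 4 of 8 basal or myoepithelial markers were called lower and 0 higher. In replicate order, their sums were 972, 260, 266 and 381 CPM in HER2 mutants and 1375, 1271, 502 and 1109 CPM in PIK3CA mutants. HER2 replicate 1 had the highest of the HER2 sums and the lowest Hoxb2 level, and replicate 2 had the lowest sum and the highest Hoxb2 level. PIK3CA replicate 1 had the highest sum and the lowest Hoxb2 level of its genotype. Against WT, 3 of the 8 were called lower in HER2 mutants, beside 5.63% of all genes. Of 7 luminal hormone-sensing markers, 1 was called higher and 1 lower in HER2 than in PIK3CA mutants. Their sums were 143 to 172 CPM in HER2 mutants and 192 to 282 CPM in PIK3CA mutants. The part of either marker list in the Hoxb2 difference was not tested.

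The Hoxb2 call was near the threshold. By edgeR, it was lost when any single PIK3CA library, or HER2 replicate 1 or 3, was left out, with adjusted p values from 0.0547 to 0.0968. Its direction was unchanged in these fits, with log2 fold changes between −1.87 and −2.37. A replicate block gave −2.30 (edgeR adjusted p = 0.0764), although the numbers were not taken to pair libraries. Fitted on the 2 genotypes alone, edgeR called 0 members (adjusted p = 0.0749 for Hoxb2). At an unadjusted p under 0.05, Hoxb3 (−2.41 on the log2 scale, SE 0.724, edgeR adjusted p = 0.0697) and Hoxb4 (−1.50, SE 0.638, adjusted p = 0.206) were lower too, beside 19.4% of all genes. DESeq2 called Hoxb3 (adjusted p = 0.00679) as well as Hoxb2.

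Hoxb3 had 8.60, 10.5, 12.5 and 9.81 CPM in PIK3CA mutants and 0.0754, 3.78, 1.58 and 2.33 CPM in HER2 mutants. WT had 9.53, 8.97 and 4.42 CPM. The double mutants had 9.84, 1.47, 14.4, 9.99 and 7.95 CPM, so replicates 1 and 4 lay in the PIK3CA range, replicate 3 above it, replicate 5 just below it and replicate 2 in the HER2 range. Hoxb4 followed the same order, with 9.06, 11.4, 15.1 and 11.4 CPM in PIK3CA mutants and 0.396, 9.14, 4.09 and 3.01 CPM in HER2 mutants. WT libraries had 10.8, 7.14 and 3.62 CPM of Hoxb4, and double mutants 8.90, 3.65, 19.8, 10.5 and 8.40. For Hoxb4 the PIK3CA and HER2 ranges overlapped slightly, through HER2 replicate 2.

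Non-coding genes of the clusters were called in the same comparison. Hotairm1, a non-coding RNA of the HoxA cluster, had 37, 24, 28 and 27 counts in HER2 mutants and 0, 0, 0 and 7 in PIK3CA mutants. Its log2 fold change was 4.08 (SE 1.05, edgeR adjusted p = 0.0402). WT had 1, 1 and 9 counts, and double mutants 4, 21, 27, 4 and 6. Hoxb3os, antisense to Hoxb3 and Hoxb2, was lower in HER2 than in PIK3CA mutants by a log2 fold change of −2.47 (SE 0.591, edgeR adjusted p = 0.0281). Both are annotated as antisense genes, and Hoxb3os shares 2250 exon bases with Hoxb3 and 953 with Hoxb2. Whether counting used strand is not given in the sources used here, so reads of such partners cannot be told apart. Of 47 other genes within or next to the clusters, 5 were tested and these 2 were called. In all, 16 of the 39 members share exon bases with another gene.

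**Figure D4:**
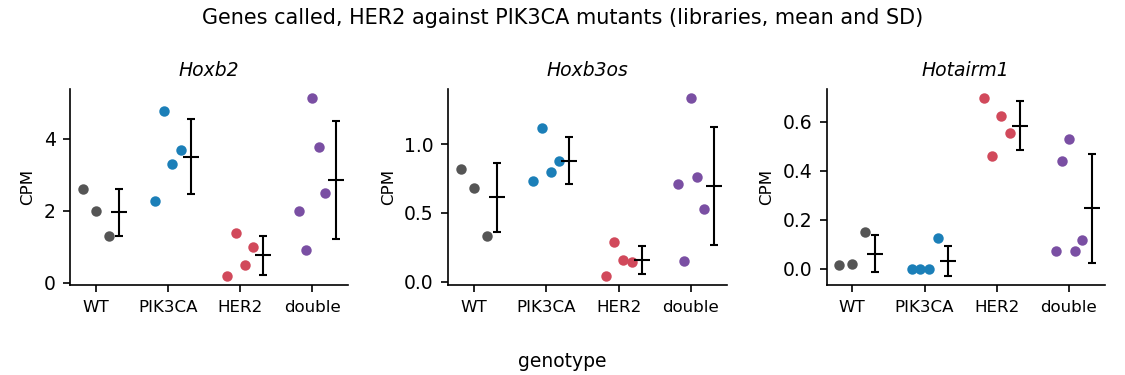
CPM of Hoxb2 and the non-coding genes Hoxb3os and Hotairm1 in each library (points) by genotype, with mean and SD (black; 3, 4, 4 and 5 libraries). HER2 libraries lie below PIK3CA libraries for Hoxb2 and Hoxb3os and above them for Hotairm1, with the double mutants spread across both.

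Adding the PIK3CA to the HER2 mutation was read from double against HER2 mutants. By edgeR, 0 members were called, beside 2.5% of all genes (1.03% higher and 1.47% lower). At an unadjusted p under 0.05, 12 of 22 members differed, beside 17.8% of all genes. Of these, 6 were higher and all were HoxB members (Hoxb2, Hoxb3, Hoxb4, Hoxb5, Hoxb6 and Hoxb8). The 6 lower were in HoxA and HoxC and included Hoxa5, Hoxa9, Hoxc6, Hoxc8 and Hoxc10. DESeq2 called 4: Hoxb2 (log2 fold change 1.92, adjusted p = 0.00578), Hoxb3 (2.18, adjusted p = 0.0140) and Hoxb5 (3.92, adjusted p = 0.00451) higher, and Hoxc8 (−3.13, adjusted p = 0.00896) lower. Without double mutant replicate 3 the edgeR log2 fold changes fell from 3.87 to 1.89 for Hoxb5, from 4.02 to 0.22 for Hoxb6 and from 3.49 to 0.69 for Hoxb8, while Hoxb2, Hoxb3 and Hoxb4 were then at 1.59, 1.91 and 0.92. By edgeR, Hoxb2 was at 1.91 (SE 0.542, adjusted p = 0.0677) and passed without HER2 replicate 2 (adjusted p = 0.0461) or double mutant replicate 2 (adjusted p = 0.0430). Hoxc8 was at −3.06 (SE 0.842, edgeR adjusted p = 0.0628) and passed without HER2 replicate 3 (adjusted p = 0.0495).

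Against PIK3CA mutants, the double mutants had 0 called members by edgeR, 0 by DESeq2 and 0 by limma, beside 0.672% of all genes by edgeR (0.309% higher and 0.363% lower). At an unadjusted p under 0.05, 4 members differed, beside 12.4% of all genes. Hoxa9, Hoxc6 and Hoxc8 were lower and Hoxb7 was higher. Hoxb7 rested on a single library: its log2 fold change of 3.62 (SE 1.70, edgeR adjusted p = 0.399) became −2.29 (SE 1.31, adjusted p = 0.507) without double mutant replicate 3. The interaction gave 0 called members by edgeR and 0 by limma, beside 1.06% of all genes (0.515% higher and 0.544% lower). Of the 22, 4 had an unadjusted p under 0.05 and were positive (Hoxd8, Hoxb5, Hoxb6 and Hoxb8), beside 13.6% of all genes. DESeq2 called Hoxd8 (3.96, adjusted p = 0.0145) and Hoxb5 (4.66, adjusted p = 0.0482). Hoxd8 had 1 to 10 counts in each mutant library, so the 2 single falls added together lie below what counts can show. The Hoxb5 value by edgeR fell from 4.61 to 2.63 without double mutant replicate 3.

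The middle of HoxB stood apart in double mutant replicate 3. That library had 276 counts of Hoxb5, 427 of Hoxb6, 253 of Hoxb7 and 185 of Hoxb8. The other 4 double mutants had 6 to 31 counts of Hoxb5, 0 to 18 of Hoxb6, 0 to 2 of Hoxb7 and 1 to 12 of Hoxb8. Summed from Hoxb5 to Hoxb9, replicate 3 had 22.9 CPM, against 0.336 to 1.05 CPM in the other double mutants and 0.312 to 7.76 CPM in the 11 libraries of other genotypes. The highest of those 11 was WT replicate 1, with 144 counts of Hoxb8 and 127 of Hoxb6. Hoxb2, Hoxb3 and Hoxb4 were highest of all 16 libraries in double mutant replicate 3 as well, at 5.14, 14.4 and 19.8 CPM. Its HoxA, HoxC and HoxD sums (0.491, 0.530 and 0.236 CPM) lay within those of the other double mutants. Its fibroblast sum was 306 CPM and its macrophage sum 239 CPM, the latter the lowest of all 16 libraries. By mean, Cd14 was the largest part of the macrophage sum in double mutants.

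Without double mutant replicate 3, the fold changes against WT of Hoxb3, Hoxb5, Hoxb6 and Hoxb7 changed sign. Hoxb3 went from 0.19 (SE 0.709) to −0.06 (SE 0.740), a move smaller than either SE. Hoxb6 went from 0.77 (SE 1.36, edgeR adjusted p = 0.764) to −3.03 (SE 0.925, adjusted p = 0.0499). Hoxb9 went from −2.01 (SE 1.04, edgeR adjusted p = 0.231) to −3.71 (SE 1.03, adjusted p = 0.0335), so edgeR then called Hoxb6 and Hoxb9 lower in double mutants. Hoxb7 went from 2.05 to −3.87 and Hoxb5 from 0.76 to −1.22, neither of them called. The interaction values fell from 4.61 to 2.63 for Hoxb5 and from 4.88 to 1.08 for Hoxb6.

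**Figure D5:**
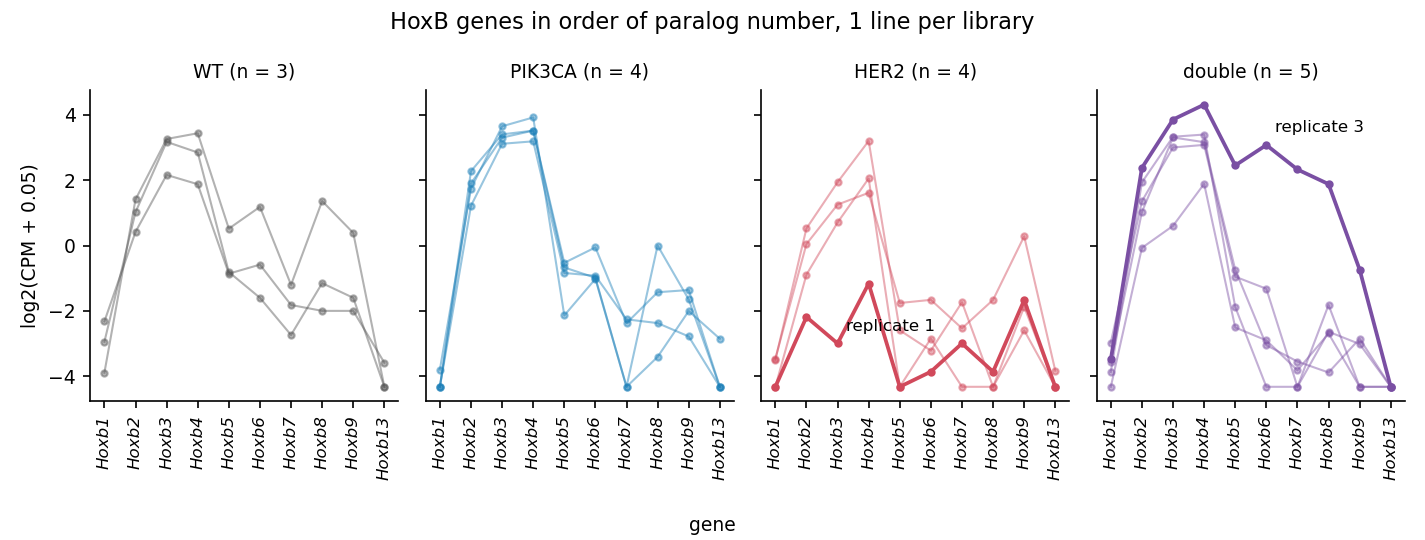
Level of the 10 HoxB genes in order of paralog number, as log2(CPM + 0.05), with 1 line per library and 1 panel per genotype. The peak at Hoxb3 and Hoxb4 recurs in all panels, double mutant replicate 3 stays high up to Hoxb8, and HER2 replicate 1 is low at Hoxb2 to Hoxb4.

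HER2 mutant replicate 1 stood at the other end, with 9 counts of Hoxb2, 4 of Hoxb3 and 21 of Hoxb4. The other HER2 mutants had 22 to 72, 71 to 196 and 147 to 474 counts of these genes. Its fibroblast sum was the lowest of all libraries, 66.0 CPM, and its epithelial sum too, 1459 CPM. Without it, Hoxb2 was lower in HER2 than in PIK3CA mutants by a log2 fold change of −1.87 (SE 0.521, edgeR adjusted p = 0.0547).

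Among the weakly expressed members, Hoxa4 led HoxA by level per length. It had 15, 13 and 9 counts in WT, 2, 2, 1 and 8 in PIK3CA mutants, 9, 4, 5 and 18 in HER2 mutants, and 25, 1, 4, 4 and 7 in double mutants. PIK3CA libraries lay below WT for Hoxa4 without passing the test (log2 fold change −1.85, SE 0.857, edgeR adjusted p = 0.287). Hoxd11, the second HoxD member by level, had 1 to 8 counts in each library and 58 in all. Other tested members of HoxA (Hoxa3, Hoxa5, Hoxa7 and Hoxa10) had 0 to 49 counts per library. They were called in no comparison by edgeR fitted on all 16 libraries by genotype alone. Hoxa10 was called lower in double mutants than in WT with those genotypes alone (−3.89, edgeR adjusted p = 0.00719) and by DESeq2 (−3.96, adjusted p = 0.0468). A replicate block also gave a call (−5.00, edgeR adjusted p = 0.0330).

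The factors that act with or on Hox genes were listed by function. Of 9 PBX and MEIS family cofactors, all were tested. Pbx2 (mean 15.6 RPKM) lay well above any Hox gene per length, and Pknox1 was at 2.55 RPKM. By edgeR, Pbx2 was higher in PIK3CA mutants than in WT, at 0.39 on the log2 scale (SE 0.103) with an adjusted p of 0.0412. In HER2 against PIK3CA mutants Pbx2 was lower, at −0.39 (SE 0.0943), and the edgeR adjusted p was 0.0286. Meis3 was lower in double mutants than in WT, at −1.13 (SE 0.307, edgeR adjusted p = 0.0258). By edgeR these were the only calls in the family over the 7 comparisons.

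Of 12 upstream regulators (transcription factors and retinoic acid genes), 9 were tested. Against WT, 1 was called higher in PIK3CA mutants, 1 higher and 3 lower in HER2 mutants, and 3 lower in double mutants. Over all genes the shares were 1.49% higher in PIK3CA mutants, 4.75% higher and 5.63% lower in HER2 mutants, and 6.72% lower in double mutants. Rarb, a retinoic acid receptor that is itself induced by retinoic acid, rose by a log2 fold change of 1.98 (SE 0.538, edgeR adjusted p = 0.0470) in PIK3CA mutants and 2.56 (SE 0.546, adjusted p = 0.00918) in HER2 mutants. Cyp26a1, which breaks down retinoic acid, was at 17.4 ± 5.52 CPM in WT, 41.9 ± 15.4 in PIK3CA mutants, 2.17 ± 1.10 in HER2 mutants and 20.2 ± 14.7 in double mutants. It was lower in HER2 than in PIK3CA mutants by a log2 fold change of −4.27 (SE 0.584, edgeR adjusted p = 0.00120). The retinoid receptor Rxra was lower in HER2 and double mutants, and Rara in double mutants. Any link between these genes and the Hox levels was not tested.

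Of 15 Polycomb genes, all were tested, and 2 were called higher in each mutant against WT, with 1 lower in double mutants. Over all genes, 1.49%, 4.75% and 5.03% were higher in PIK3CA, HER2 and double mutants, and 6.72% lower in the last. Cbx2, a chromatin-binding subunit of Polycomb complexes, rose in the single mutants, by 1.13 and 0.99 (edgeR adjusted p = 0.0253 and 0.0319). In double mutants Suz12, a core subunit, rose by 0.55 (SE 0.145, edgeR adjusted p = 0.0221) and Ezh1, a catalytic subunit, fell by 0.58 (SE 0.177, adjusted p = 0.0429). Of 9 genes of the MLL, menin and demethylase list, which oppose Polycomb, Kdm6b alone was called, higher by 0.59 in HER2 mutants and 0.60 in double mutants (edgeR adjusted p = 0.0487 and 0.0369). The median log2 fold change of the Polycomb list was 0.26, 0.19 and 0.27 in the 3 mutants, beside −0.03, 0.03 and 0.01 over all genes.

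A list of homeobox genes outside the clusters, which also held T-box genes, gave 2 calls among 10 tested of 13. Both were lower in double mutants than in WT, where 6.72% of all genes were lower. Msx1, a mammary and limb bud factor, was at 1.55 ± 0.793 CPM in WT and 0.123 ± 0.149 in double mutants, which gave −3.63 on the log2 scale with an SE of 0.925 (edgeR adjusted p = 0.0184). Dlx2 was at 0.391 ± 0.0737 CPM in WT and 0.0362 ± 0.0418 in double mutants, or −3.39 with an SE of 0.779 (edgeR adjusted p = 0.0101).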

How the data were processed

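RNA was made into mRNA sequencing libraries with a SMARTer kit, per the labels' protocols. Per the submitters' processing notes, the tools were bcl2fastq 2.20, STAR 2.0.4b, Subread, featureCounts 1.4.5 and DESeq2 1.33.5, with build mm10. The authors deposited a table of raw counts per gene (55774 rows, of which 287 repeated an identifier and were used once) and a table of normalized values, a signal the authors made by dividing counts by size factors. The deposited normalized values equalled counts over median-of-ratios size factors within a relative difference of 4.98e-10. Library totals were 45545182 to 64168308 counts.

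The counts were tested with edgeR 4.0.16 (R 4.3.3; filterByExpr, TMM scaling, quasi-likelihood test, two-sided) in 1 fit of all 16 libraries, with Benjamini-Hochberg adjustment over 24252 genes. SE is the log2 fold change over the square root of the F statistic. CPM used TMM-scaled totals, and RPKM the summed exon length of GENCODE M21 (GRCm38). Alternatives were RLE and upper-quartile scaling, no filter, DESeq2 1.42.0, limma 3.58.1 on log2(normalized value + 1), the compared genotypes alone, a replicate block, and leaving out each library. The fit was tested on simulated data. Some genes that enter the counts are not reported here by name. No library pair was identical. Members and gene lists were chosen with earlier results of these data known. Values per library are given for members called in any comparison and for the 2 leading members of each cluster by level per length, others by range. From the other lists at most 6 genes are named, those called in most comparisons; the HoxB members named beside double mutant replicate 3 were chosen after their values were seen.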

Additional observations from a re-analysis of the deposited data

Results flagged for a closer look

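For the 22 tested members and the 4 cluster sums, a library was noted when its gap to the nearest other library of its genotype took most of the genotype's range (Dixon's test at 95%, groups of 4 and 5). This happened in 16 of 78 groups. The test's rate of about 1 in 20, or 3.9 groups, holds for independent normal values. Most values here are low counts, and genes of a cluster are not independent, so the excess of 16 over 3.9 supports nothing. In double mutant replicate 3 it was so for Hoxb5 (5.42 CPM), Hoxb6 (8.38), Hoxb7 (4.97), Hoxb8 (3.63) and Hoxb9 (0.550). In HER2 mutant replicate 4 it was so for Hoxb8 (0.266 CPM), Hoxb9 (1.17), Hoxc8 (0.901), Hoxc9 (0.716) and the HoxC sum (3.19). In PIK3CA mutant replicate 4 it was so for Hoxa3 (0.482 CPM), Hoxa4 (0.143), Hoxa10 (0.429) and Hoxb6 (0.911). Hoxa4 was high in double mutant replicate 1 (0.443 CPM). Hoxa9 had its single double mutant count in replicate 2 (0.0210 CPM), with 0 in the other 4, where any single count would be noted.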

How the results depend on the processing

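Directions held in all but 1 of 711 values, over 47 pairs of a member and a comparison with an unadjusted p under 0.05. The exception was Hoxb7 in double against PIK3CA mutants, which went from 3.62 to −2.29 without double mutant replicate 3. Without other libraries its value was up to 4.24. The 47 pairs were chosen by that p in the same libraries, so most directions were bound to hold, which supports nothing. Outside the 47, Hoxb3, Hoxb5, Hoxb6 and Hoxb7 changed sign in double mutants against WT without double mutant replicate 3. Of the 711, 654 also kept their side of the threshold. Counts of called members were 2 by DESeq2 and 2 with the compared genotypes alone in PIK3CA mutants against WT (main 1); 4 by DESeq2, 2 by limma and 0 with the compared genotypes alone in HER2 mutants against WT (main 1); 4 by DESeq2 in double against HER2 mutants (main 0); and 2 by DESeq2 for the interaction (main 0). In HER2 against PIK3CA mutants (main 2), the replicate block gave 0 and the compared genotypes alone 0, where 8 members passed the filter. The cause of these moves was not tested. With the replicate block, the double mutant against WT gave 7 (main 5), adding Hoxa10 and Hoxc9, and in the 5 remaining comparisons the block left the count of members as it was. The replicate numbers were not taken to pair libraries: only between HER2 and double mutants did most same-numbered pairs deviate together, 3 of 4 with a correlation over 0.1 (mean 0.216, others −0.06), and 2 of 4 double mutants correlated best with their own number.

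Leaving out each library of the compared genotypes gave 0 to 1 called members in PIK3CA mutants against WT, 0 to 3 in HER2 mutants against WT, 2 to 6 in double mutants against WT, 0 to 1 in double against HER2 mutants, 0 in double against PIK3CA mutants, 0 to 2 in HER2 against PIK3CA mutants and 0 for the interaction. The count of 2 in double mutants was without WT replicate 3 and that of 3 without double mutant replicate 4.

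Over all genes, calls in PIK3CA mutants against WT rose from 1096 to 1778 by DESeq2 and 4136 with the compared genotypes alone. HER2 mutants against WT went from 2518 to 1625 with the block and 541 with those genotypes alone. Double against HER2 mutants went from 606 to 1652 (DESeq2), 118 (block) and 37 (genotypes alone), and double against PIK3CA mutants from 163 to 613, 19 and 364 in the same order. HER2 against PIK3CA mutants went from 1069 to 2110, 552 and 534, and the interaction from 257 to 945 by DESeq2 and 35 with the block. Leaving out 1 library gave 396 to 1043 calls in PIK3CA mutants against WT, 733 to 2693 in HER2 mutants against WT and 1173 to 2961 (main 2850) in double mutants against WT, each lowest without WT replicate 3. It gave 256 to 975 in double against HER2 mutants, 17 to 143 in double against PIK3CA mutants, 427 to 1166 in HER2 against PIK3CA mutants and 54 to 382 for the interaction, so the background shares move as well. No cluster sum moved by more than its SD with unscaled totals. Of the double against HER2 calls, 249 were higher and 357 lower, against 191 and 441 with upper-quartile scaling and 271 and 216 by limma. Most members had under 50 counts in every library.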
